A study of Homo sapiens with 28 samples.

Results

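The 33 genes described here are targets of the hypoxia response and enzymes of glycolysis, chosen by symbol from a list that leaves out the glycolysis genes of 12p. Of these, 29 had a transcript cluster (the gene-level unit of the array) annotated to 1 symbol, among 22011 clusters in all. All 33 had probesets (the exon-level unit) of 1 symbol, 581 of 287329. CA9, ANKRD37, PGAM1 and EGLN1 had no such cluster and were read as the mean of their probesets. PKM and KDM3A stood in the exon-level annotation under the older names PKM2 and JMJD1A.

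RNA of human pluripotent lines was hybridised to Affymetrix Human Exon 1.0 ST arrays, 14 in all. Embryonic stem (ES) lines, derived from embryos, were H14, Shef5, Shef 6, Shef3, H9 and Shef7 (n = 6). They were kept on a layer of mouse embryo fibroblasts stopped from dividing with mitomycin (feeders), and their medium was KO-DMEM holding serum replacement at 10% and FGF at 4 ng/ml. Embryonal carcinoma (EC) lines, derived from germ cell tumours, were NTERA2, TERA1, 833KE, 2102Ep and NCCIT (n = 5), kept without feeders on plastic in DMEM of high glucose, with FCS at 10%. A further culture each of NTERA2, 2102Ep and 833KE (n = 3) was moved to feeders and the medium of the ES lines. FACS had selected SSEA3-positive cells from every culture. A line has 1 array per growth condition, and the spread within a group is therefore one between lines. Oxygen tension is not given in the sources used here.

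Hypoxia-inducible factors (HIF) are transcription factors whose alpha subunits are hydroxylated by the EGLN prolyl hydroxylases in the presence of oxygen and then degraded. When oxygen is low the alpha subunits persist, pair with ARNT and raise transcription of genes for glucose uptake, glycolysis, angiogenesis and mitophagy. Pluripotent cells in culture are known for a strongly glycolytic metabolism, and tumour cells often take up glucose and release lactate even with oxygen present.

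Values are the deposited log2 intensities, and a difference is the first group's mean minus the second's on that scale. A gene is called where the limma test over all features gave an adjusted p under 0.05. The array medians lay between 6.19 and 6.39 at gene level. The mean level of 8 measured pluripotency markers lay between 9.99 and 11.09 over the ES arrays and between 10.14 and 11.34 over the EC arrays. SOX2 read from its 6 probesets was at 9.60 or above on all arrays and NANOG from its 2 at 8.58 or above. POU5F1 could be read only from 4 probesets of 1 symbol, which lay between 4.49 and 6.47. The mean level of 18 fibroblast markers lay between 6.15 and 7.02 on ES arrays, 5.58 and 6.01 on EC arrays from plastic, and 6.20 and 6.57 on EC arrays from feeders. The labels also carry array codes, which are at most 13 for H14, Shef5 and for NTERA2 and 2102Ep on feeders (4 earlier codes) and at least 17 for the 10 others (later codes).

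In EC lines on plastic, BNIP3 was higher and EGLN3 lower than in ES lines, and the other 27 genes were not called. The 2 called genes were 6.9% of the 29 measured, where 4.6% of all 22011 clusters were called (3.26% higher, 1.34% lower). In EC lines on feeders HK1 was higher and EGLN3 and ADM were lower, 3 of 29, where 2.29% of all clusters were called (1.56% higher, 0.731% lower). The EC and ES arrays did not overlap for 1 higher and 1 lower gene on plastic (all clusters 2.85% and 1.52%) and for 4 higher and 2 lower genes on feeders (5.78% and 3.08%). With each of the 33 genes read as the mean of its probesets, PGK1 and EGLN3 were called on plastic (all genes 8.29%) and HK1, NDRG1, EGLN3 and ADM on feeders (all genes 4.8%). The differences of the 29 genes had a median of 0.32 on plastic (all clusters 0.00456) and of 0.42 on feeders (all clusters 0.0419), with 19 and 20 of 29 above 0. At an unadjusted p under 0.05 stood 8 of 29 on plastic and 12 of 29 on feeders, against 19.2% and 17.6% of all clusters. Both comparisons use the same 6 ES arrays. On plastic, medium, feeders and cell type differ together and cannot be told apart. Fewer cells of a type and less RNA per cell cannot be told apart in these bulk samples.

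**Figure D1:**
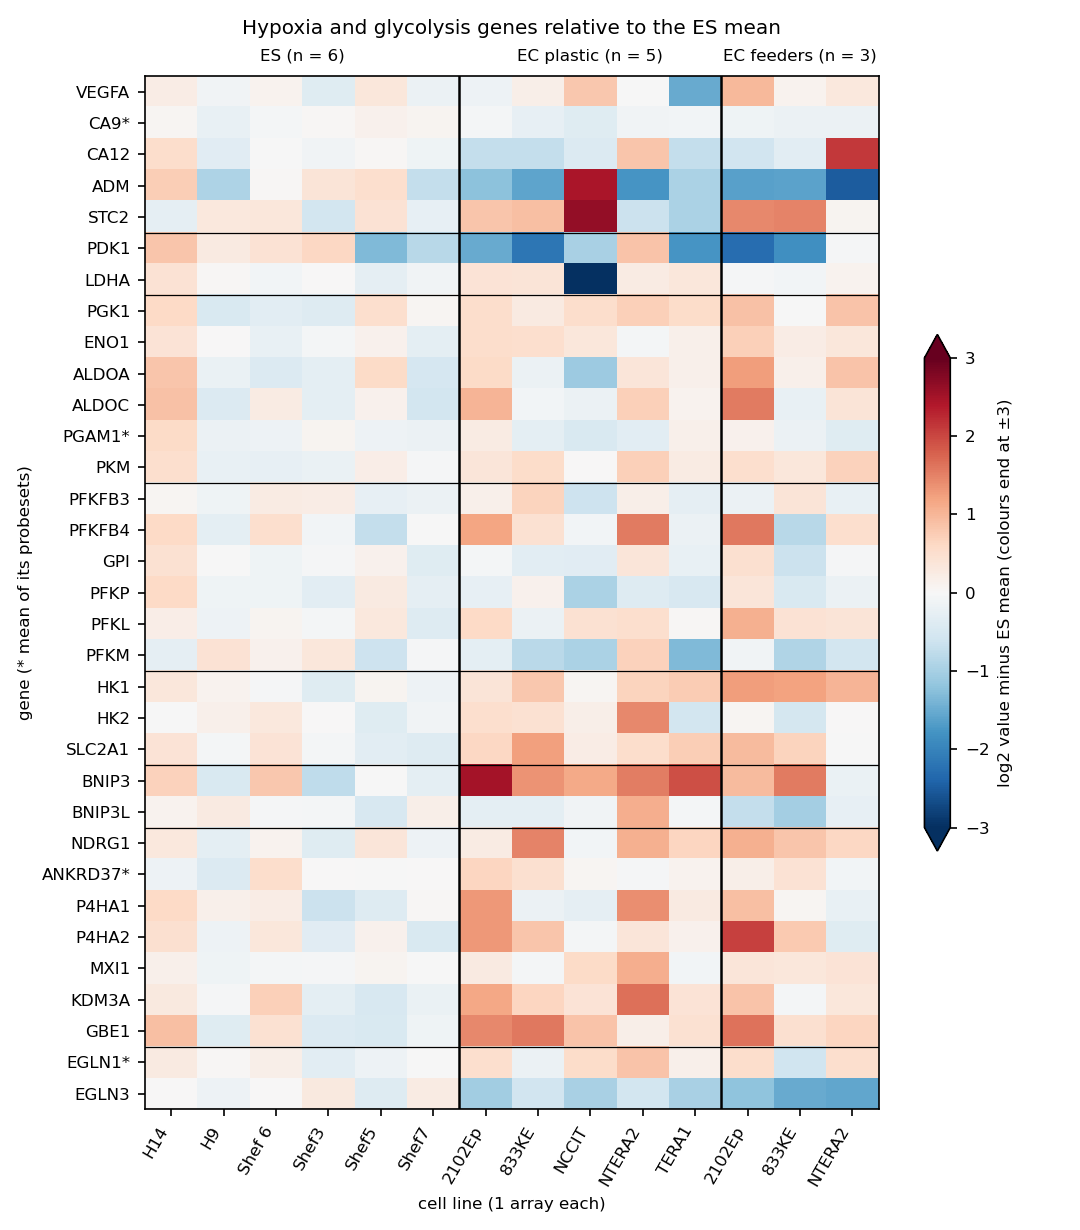
Each cell is the log2 value of 1 gene on 1 array minus the mean of the 6 ES arrays, with genes grouped by role and arrays by group. EGLN3 was below the ES mean on all 8 EC arrays, and NCCIT stood apart from the other EC lines for LDHA, ADM and STC2.

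**Figure D2:**
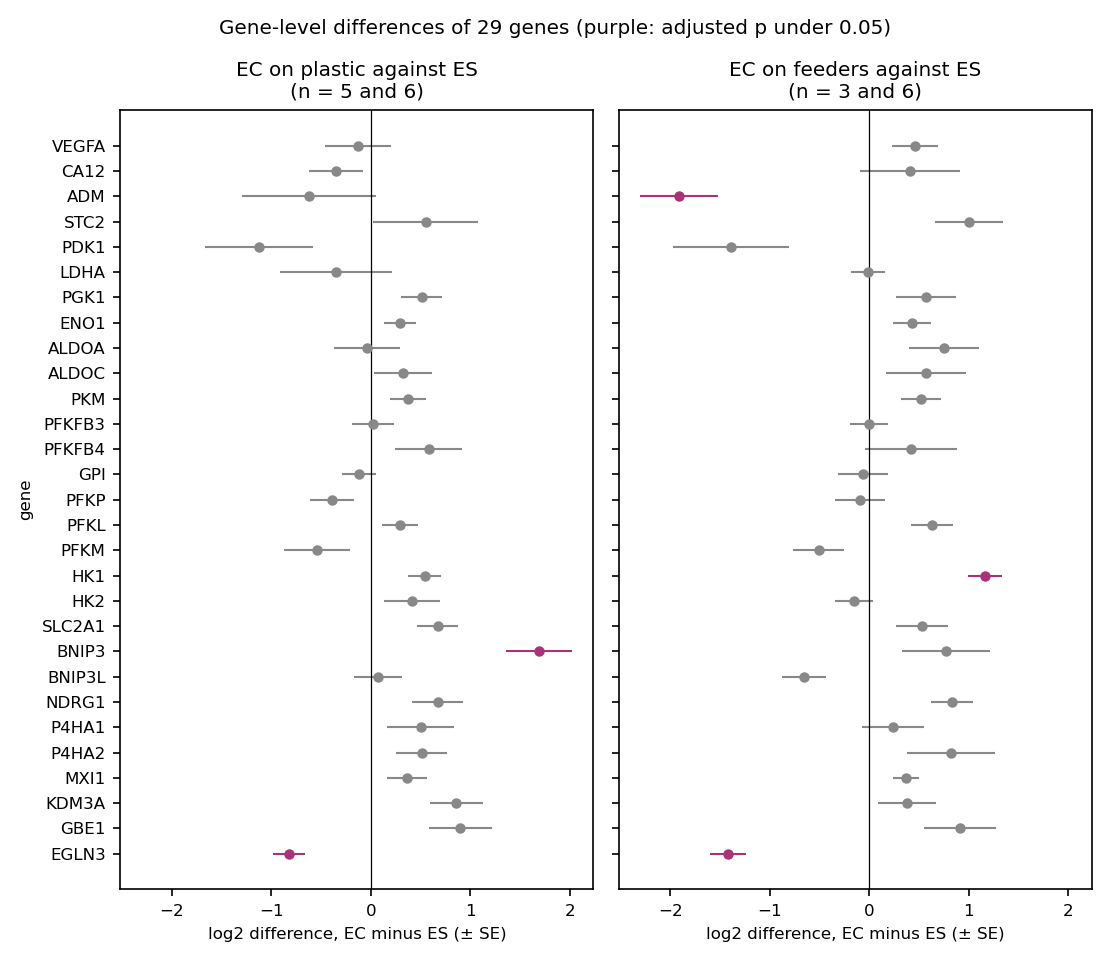
Log2 differences (EC minus ES, ± SE) of the 29 genes with a cluster, for EC lines on plastic (n = 5) and on feeders (n = 3) against ES lines (n = 6). BNIP3 and EGLN3 were called on plastic, and HK1, EGLN3 and ADM on feeders.

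EGLN3, on chromosome 14, encodes a prolyl hydroxylase that marks HIF alpha subunits for degradation and is itself a HIF target. Its level was between 7.59 and 8.27 in ES lines (median 8.0). The plastic cultures gave 7.01 in NCCIT, 6.95 in 2102Ep, 7.41 in 833KE, 7.0 in TERA1 and 7.42 in NTERA2. The feeder cultures gave 6.43 in NTERA2, 6.77 in 2102Ep and 6.48 in 833KE. All 8 EC arrays were below all 6 ES arrays, and all 3 feeder arrays were below all 5 plastic arrays. The difference from ES was -0.82 ± 0.16 (SE) on plastic, 1.77-fold lower, with an adjusted p of 0.0128, and -1.42 ± 0.18 on feeders, 2.68-fold lower, with an adjusted p of 0.00637 (limma). With only the 3 EC lines that were also grown on feeders, the plastic difference was -0.72 and the adjusted p 0.0675. With later codes only, the feeders difference was -1.60 and the adjusted p 0.0453, with 1 EC array left, which was assumed to vary like the ES arrays. With earlier codes only (2 against 2 arrays) it was -1.19 and the adjusted p 0.334. With the code class (earlier or later) as a block, which keeps all arrays, it was -1.37 and the adjusted p 0.0109 (limma).

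EGLN3 probesets did not all share that difference. Ordered from the inferred 5′ end, the 11 probesets from the 4th on all had differences below 0 in both comparisons, with median differences of -1.04 on plastic and -1.77 on feeders. Of these 11, 6 were called on plastic and 9 on feeders. The first 3 probesets had differences between -0.03 and 0.01 on plastic and between -0.39 and 0.02 on feeders, and no probeset among them was called. Averaged over these 3, EC arrays on feeders lay between 8.05 and 8.64 and ES arrays between 8.16 and 8.75, so the groups overlapped. This split was chosen after the values were seen. The related gene EGLN1, the main oxygen-dependent hydroxylase, was read from 16 probesets at 7.23 ± 0.21 (SD, n = 6) in ES lines, 7.61 ± 0.41 (n = 5) on plastic and 7.38 ± 0.64 (n = 3) on feeders, and was not called (adjusted p = 0.25 and 0.808, limma).

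HIF binds a short core, and the 250 bases before the start of a gene were searched for its letters ACGTG and GCGTG on both strands in RefSeq promoters (GRCh38.p14). Matches may overlap each other, and the palindrome CACGTG counts once on each strand. Of the 33 genes 30 had an entry, and 20 of these (66.7%) held at least 1 match, against 43.2% of 35116 promoters. Each of these genes was counted once, the background over all entries, and base composition was not matched. The genes were chosen in part as known targets of the hypoxia response, so the higher share is a description only. The sequences of EGLN3 and BNIP3 are shown because they are the genes called on plastic, ADM because its level split the EC lines, and LDHA because its level in NCCIT lay far from the rest. Capitals mark the matches, and each is written 5′ to 3′ on the strand of its gene.
EGLN3: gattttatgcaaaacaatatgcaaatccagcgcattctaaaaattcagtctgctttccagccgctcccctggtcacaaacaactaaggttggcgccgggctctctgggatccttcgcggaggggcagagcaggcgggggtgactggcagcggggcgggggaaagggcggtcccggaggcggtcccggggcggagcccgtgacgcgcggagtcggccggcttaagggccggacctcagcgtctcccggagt
BNIP3: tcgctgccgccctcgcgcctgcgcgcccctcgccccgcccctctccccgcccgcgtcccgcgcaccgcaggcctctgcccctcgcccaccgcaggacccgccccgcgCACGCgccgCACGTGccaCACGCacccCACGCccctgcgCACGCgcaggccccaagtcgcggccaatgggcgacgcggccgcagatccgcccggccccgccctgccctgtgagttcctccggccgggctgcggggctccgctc
ADM: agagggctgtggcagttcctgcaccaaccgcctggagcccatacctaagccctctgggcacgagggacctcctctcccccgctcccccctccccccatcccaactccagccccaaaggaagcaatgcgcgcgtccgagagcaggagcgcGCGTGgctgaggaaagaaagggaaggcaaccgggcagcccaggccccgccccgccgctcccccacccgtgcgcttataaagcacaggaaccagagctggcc
LDHA: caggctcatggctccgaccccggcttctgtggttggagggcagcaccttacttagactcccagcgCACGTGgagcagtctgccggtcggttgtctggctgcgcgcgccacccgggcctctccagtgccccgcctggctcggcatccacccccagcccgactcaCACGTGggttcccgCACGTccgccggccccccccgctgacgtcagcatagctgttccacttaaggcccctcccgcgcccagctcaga
The windows are chr14:33951075-33951324 (minus strand), chr10:131981924-131982173 (minus strand), chr11:10304823-10305072 (plus strand) and chr11:18394313-18394562 (plus strand). BNIP3 held 6 matches, LDHA 5, ADM 1 and EGLN3 0. These are descriptions of letters in this window, and binding was not measured.

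BNIP3, on chromosome 10, encodes an outer mitochondrial membrane protein that takes part in mitophagy. In ES lines its level was between 8.04 and 9.62 (median 8.65). Cultures on plastic read 9.95 in NCCIT, 11.31 in 2102Ep, 10.14 in 833KE, 10.74 in TERA1 and 10.33 in NTERA2. All 5 plastic arrays were above all 6 ES arrays, and the difference was 1.69 ± 0.33 (SE), 3.23-fold, with an adjusted p of 0.0133 (limma). On feeders BNIP3 was 8.60 in NTERA2, 9.76 in 2102Ep and 10.37 in 833KE, which overlapped the ES range. The feeders difference was 0.77 ± 0.44 with an adjusted p of 0.399.

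The deposited value of the BNIP3 cluster was identical to that of 1 of its 9 probesets on every array. That probeset, 3314042, was the one BNIP3 probeset called on plastic (1.69, adjusted p = 0.0188, limma), and all 9 had differences above 0. As the mean over the 9 probesets the difference was 1.2 with an adjusted p of 0.0742, and without that probeset it was 1.14 with an adjusted p of 0.0988. The ES line H14 was at or above the lowest EC plastic array in 8 of 9 probesets and Shef 6 in 7 of 9, while Shef3 and H9 were below all EC plastic arrays in every probeset. With EC arrays of both growth conditions and the line as a random block, the cluster value differed from ES by 1.36 with an adjusted p of 0.0682. BNIP3L, a related mitophagy receptor, was 8.56 ± 0.27 (SD, n = 6) in ES lines, 8.62 ± 0.58 (n = 5) on plastic and 7.90 ± 0.40 (n = 3) on feeders, and was not called. Its highest array was NTERA2 on plastic at 9.64, and NTERA2 on feeders was at 8.32.

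**Figure D3:**
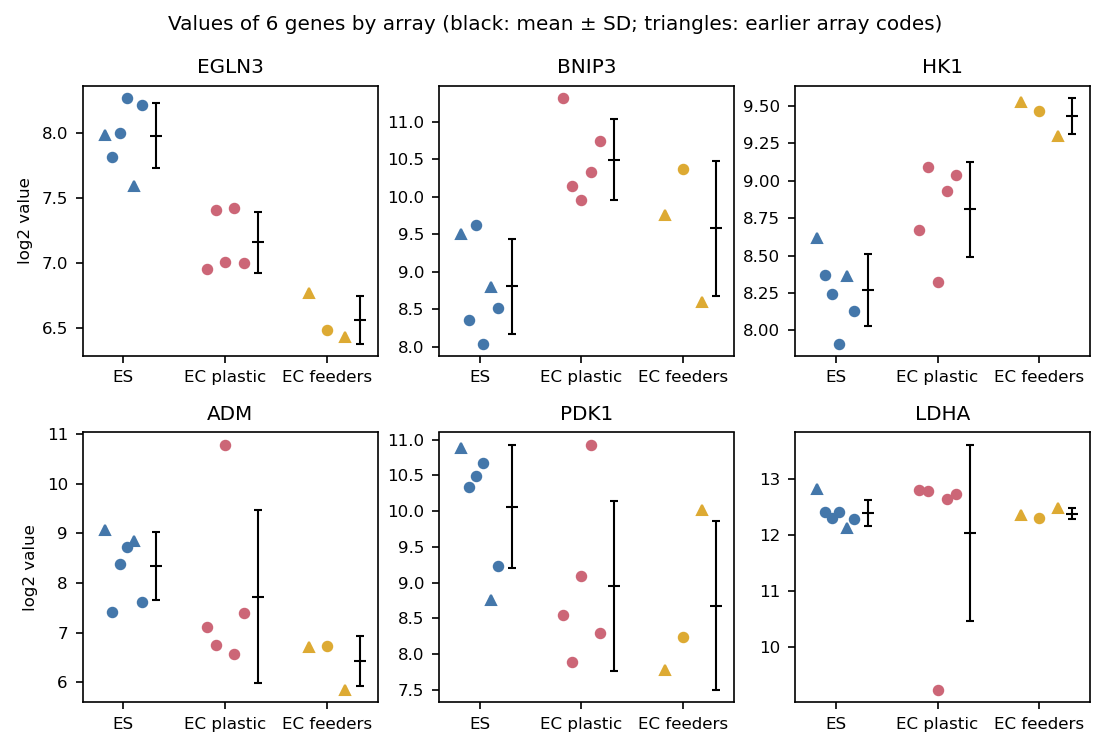
Log2 values of 6 genes on the 14 arrays by group, with mean ± SD in black and triangles for the 4 arrays with earlier codes. HK1 on feeders (9.30 to 9.53) lies above all other arrays, and 1 plastic array, NCCIT, lies apart for ADM (10.78) and LDHA (9.22).

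Glucose enters cells through SLC2A1 (GLUT1) and is phosphorylated by hexokinases, of which HK1 is the broadly expressed form and HK2 the form induced by hypoxia. HK1, on chromosome 10, was between 7.91 and 8.62 in ES lines (median 8.30). EC cultures on feeders read 9.30 in NTERA2, 9.53 in 2102Ep and 9.47 in 833KE. Plastic cultures measured 8.32 in NCCIT, 8.67 in 2102Ep, 9.09 in 833KE, 9.04 in TERA1 and 8.93 in NTERA2. The feeder arrays were above all ES and all plastic arrays, whereas the plastic range overlapped that of ES lines at NCCIT. The feeders difference was 1.16 ± 0.17 (SE), 2.24-fold, with an adjusted p of 0.0103, and the plastic difference was 0.54 ± 0.17 with an adjusted p of 0.103 (limma). Without NCCIT the plastic difference was 0.66 and the adjusted p 0.0325. A fit of EC arrays of both growth conditions against ES, with the line as a random block, gave 0.75 and 0.0477 (limma). That fit includes the feeder arrays and is not a plastic difference. With later codes only, which leaves 1 EC array, the feeders difference was 1.31. With earlier codes only it was 0.92 with an adjusted p of 0.341. With the code class as a block, which keeps all arrays, it was 1.1 with an adjusted p of 0.0153 (limma).

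HK1 has 34 probesets, and those on the inferred 5′ side behaved unlike the rest. The first 11 had a median value of 3.67 over all arrays, and 4 of these 11 had feeders differences above 0, with a median of -0.12 and 1 called. The 23 from the 12th on had a median value of 9.52, and all 23 had feeders differences above 0 with no overlap between the groups (4.14% of all probesets), with a median of 1.51. Of these 23, 8 were called on feeders and 1 on plastic. On plastic all 23 were above 0 as well, with a median of 0.60. The place of the split was chosen after the values were seen.

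HK2 was between 7.63 and 8.30 in ES lines (median 7.99). For EC lines on plastic the values were 8.17 in NCCIT, 8.49 in 2102Ep, 8.45 in 833KE, 7.44 in TERA1 and 9.43 in NTERA2, and on feeders 8.0 in NTERA2, 8.05 in 2102Ep and 7.45 in 833KE. NTERA2 on plastic was highest of all 14 arrays in 24 of 25 HK2 probesets. HK2 was not called in either comparison with ES (adjusted p = 0.485 on plastic and 0.754 on feeders, limma). SLC2A1 was between 10.36 and 11.15 in ES lines (median 10.67). Its values on plastic were 10.95 in NCCIT, 11.35 in 2102Ep, 11.96 in 833KE, 11.48 in TERA1 and 11.27 in NTERA2, and on feeders 10.72 in NTERA2, 11.68 in 2102Ep and 11.41 in 833KE. It averaged 11.40 ± 0.37 (SD, n = 5) on plastic and 11.27 ± 0.49 (n = 3) on feeders. Its plastic difference was 0.67 ± 0.21 (SE) with an adjusted p of 0.0928, and all 14 of its probesets had differences above 0 in both comparisons.

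At the phosphofructokinase step none of 6 genes was called in any comparison. PFKFB3 and PFKFB4 make the sugar bisphosphate that activates phosphofructokinase, and both are HIF targets. PFKFB3 was between 7.51 and 8.01 in ES lines (median 7.72). The plastic cultures gave 7.13 in NCCIT, 7.90 in 2102Ep, 8.43 in 833KE, 7.49 in TERA1 and 7.93 in NTERA2, and on feeders 7.54 in NTERA2, 7.59 in 2102Ep and 8.15 in 833KE. The group means of PFKFB3 were 7.76 in ES lines, 7.78 on plastic and 7.76 on feeders, with SEs of the differences of 0.21 and 0.19.

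PFKFB4 varied more between lines. It was between 6.35 and 7.67 in ES lines (median 7.03). Cultures on plastic read 6.98 in NCCIT, 8.25 in 2102Ep, 7.52 in 833KE, 6.90 in TERA1 and 8.64 in NTERA2, and on feeders 7.57 in NTERA2, 8.66 in 2102Ep and 6.25 in 833KE. The lowest and the highest of the 14 arrays were thus both EC lines on feeders. Its difference was 0.58 ± 0.34 (SE) on plastic and 0.42 ± 0.46 on feeders.

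Of the phosphofructokinase subunits, PFKL is the liver form, PFKM the muscle form and PFKP the platelet form. PFKL had the largest difference of this step on feeders. It was between 8.35 and 9.06 in ES lines (median 8.74). For EC lines on feeders the values were 9.12 in NTERA2, 9.79 in 2102Ep and 9.17 in 833KE, all above the ES range, with a difference of 0.63 ± 0.21 (SE) and an adjusted p of 0.149 (limma). Plastic cultures measured 9.20 in NCCIT, 9.34 in 2102Ep, 8.56 in 833KE, 8.76 in TERA1 and 9.24 in NTERA2, which overlapped the ES lines. PFKM had differences of -0.54 ± 0.33 and -0.51 ± 0.26, and 24 and 25 of its 25 probesets were below 0 in the plastic and feeders comparisons. PFKP had differences of -0.39 ± 0.22 and -0.09 ± 0.25. GPI, which interconverts glucose and fructose phosphates upstream of this step, had differences of -0.12 ± 0.17 and -0.06 ± 0.25.

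The later steps of glycolysis were represented by PGK1, ENO1, ALDOA, ALDOC, PKM and PGAM1. None was called at gene level. PGK1, on the X chromosome, makes the first ATP of the pathway. Its level was between 11.35 and 12.42 in ES lines (median 11.68). For EC lines on plastic the values were 12.35 in NCCIT, 12.34 in 2102Ep, 12.07 in 833KE, 12.36 in TERA1 and 12.52 in NTERA2, and on feeders 12.66 in NTERA2, 12.68 in 2102Ep and 11.81 in 833KE. Among the ES lines, H14 was at 12.42 and Shef5 at 12.31, and the other 4 lay between 11.35 and 11.86, below all 5 plastic arrays.

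The PGK1 difference was 0.51 ± 0.21 (SE) on plastic with an adjusted p of 0.204 (limma). With later codes only, which leaves out H14 and Shef5, it was 0.79 with an adjusted p of 0.0319, and with the code class as a block 0.79 with an adjusted p of 0.0165. The cluster value of PGK1 equalled that of 1 of its 13 probesets, and the mean over the 13 gave 0.82 with an adjusted p of 0.0433. All 13 had differences above 0 in both comparisons, and 2 of them, 3982471 and 3982472, were called on plastic. Settings thus decided on which side of the threshold PGK1 fell, with its difference above 0 in each.

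ALDOA, an aldolase that splits the fructose bisphosphate made by phosphofructokinase, was between 9.96 and 11.28 in ES lines (median 10.21). The feeder cultures gave 11.32 in NTERA2, 11.71 in 2102Ep and 10.61 in 833KE, and on plastic 9.36 in NCCIT, 11.04 in 2102Ep, 10.27 in 833KE, 10.61 in TERA1 and 10.81 in NTERA2. Its difference was 0.75 ± 0.35 (SE) on feeders with an adjusted p of 0.292 and -0.04 ± 0.33 on plastic. The neuronal aldolase ALDOC had differences of 0.57 ± 0.40 and 0.32 ± 0.29, and 2102Ep on feeders was its highest array in all 9 probesets.

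ENO1, an enolase, had differences of 0.29 ± 0.16 on plastic and 0.43 ± 0.19 on feeders, and all 14 of its probesets were above 0 in both. PKM, pyruvate kinase, had differences of 0.37 ± 0.18 and 0.52 ± 0.20. PGAM1, a phosphoglycerate mutase read from 5 probesets, was 11.36 ± 0.30 (SD, n = 6) in ES lines, 11.23 ± 0.31 (n = 5) on plastic and 11.23 ± 0.25 (n = 3) on feeders. PGK1, ENO1, ALDOA, PGAM1 and LDHA have near-identical copies elsewhere in the genome, so their probes may also read these.

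LDHA and PDK1 act on the fate of pyruvate. LDHA, on chromosome 11, reduces pyruvate to lactate. It was between 12.11 and 12.81 in ES lines (median 12.35). The plastic cultures gave 12.80 in 2102Ep, 12.78 in 833KE, 12.73 in TERA1 and 12.63 in NTERA2, but 9.22 in NCCIT. EC cultures on feeders read 12.48 in NTERA2, 12.35 in 2102Ep and 12.29 in 833KE. The NCCIT value minus the mean of the other 4 plastic lines was -3.51, 11.41-fold lower, whereas all 13 other arrays lay within 0.70 of each other. It was the lowest of the 14 arrays in all 15 LDHA probesets, by 3.11 to 5.64 against the mean of the other 4. The group difference on plastic was -0.35 ± 0.56 (SE) with NCCIT and 0.35 without it, with adjusted p of 0.803 and 0.191 (limma). One array of 1 line stands behind this value, so no test of NCCIT itself could be made.

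Of other lactate genes, 4 were looked up in NCCIT after its LDHA value was seen, and each lay within the range of the other arrays. LDHC was at 3.10, with the others between 2.47 and 3.66, and LDHAL6B at 5.40, with the others between 4.75 and 5.51. On all arrays LDHC was under the 25th percentile of all gene-level values (4.55), and LDHAL6B under the lowest array median (6.19). For both genes, lying within this range therefore says little. The lactate transporter SLC16A1 was at 12.12, with the others between 10.51 and 12.17, and SLC16A3 was at 6.85, with the others between 6.21 and 9.24. NCCIT was also the lowest of the 14 arrays for CA9, ALDOA, PFKFB3, PGAM1 and PFKP, and the highest for ADM and STC2. Its median over the 33 genes was 0.07 below the ES mean.

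**Figure D4:**
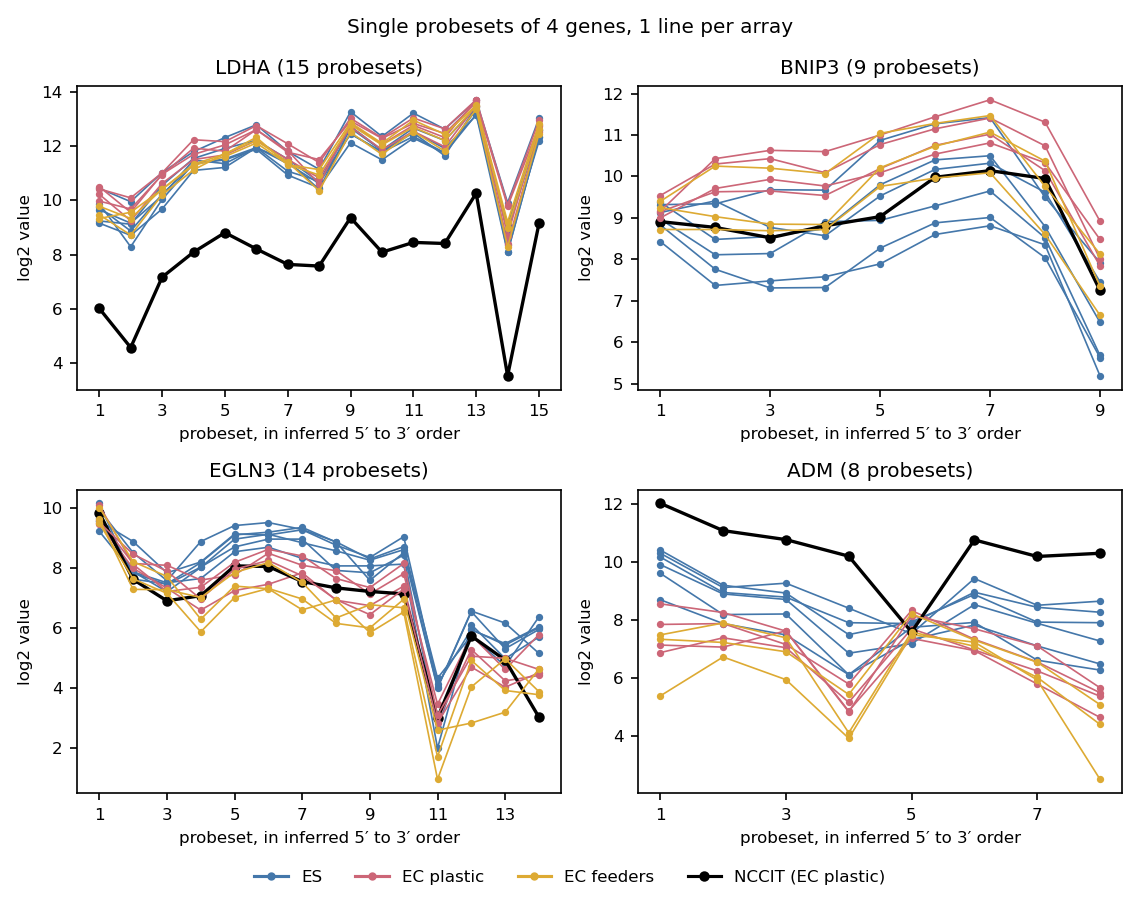
Log2 values of single probesets of LDHA, BNIP3, EGLN3 and ADM in inferred 5′ to 3′ order, 1 line per array. NCCIT (black) is the lowest array in all 15 LDHA probesets and the highest in 7 of 8 ADM probesets, and the first 3 EGLN3 probesets do not separate the groups.

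PDK1, on chromosome 2, phosphorylates pyruvate dehydrogenase and so limits the flow of pyruvate into the citric acid cycle. It was between 8.75 and 10.89 in ES lines (median 10.41). Cultures on plastic read 9.09 in NCCIT, 8.55 in 2102Ep, 7.89 in 833KE, 8.29 in TERA1 and 10.93 in NTERA2, and on feeders 10.02 in NTERA2, 7.78 in 2102Ep and 8.23 in 833KE. NTERA2 on plastic was the highest of the 14 arrays, NTERA2 on feeders lay within the ES range, and Shef5, at 8.75, was the lowest ES line. The differences, -1.12 ± 0.54 (SE) on plastic and -1.39 ± 0.58 on feeders, were among the largest of the 29 genes but had adjusted p of 0.293 and 0.247 (limma). Of its 21 probesets 20 were below 0 on plastic and 21 on feeders, and none was called.

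Among secreted and vascular factors, ADM encodes adrenomedullin, a vasodilator peptide. It was between 7.42 and 9.07 in ES lines (median 8.55). For EC lines on feeders the values were 5.84 in NTERA2, 6.71 in 2102Ep and 6.73 in 833KE, all below the ES range. The difference was -1.91 ± 0.39 (SE), 3.77-fold lower, with an adjusted p of 0.0351 (limma). Leaving out 1 array at a time gave differences between -2.10 and -1.62. The call held without H9 (adjusted p = 0.0261) or Shef7 (0.044) and was lost without any 1 of the other 7, with adjusted p between 0.0501 and 0.0899. With later codes only, which leaves 1 EC array, the difference was -1.30. With earlier codes only it was -2.68 and the adjusted p 0.25, and with the spread of all 14 arrays the adjusted p was 0.215. With the code class as a block the difference was -2.07 and the adjusted p 0.0376 (limma).

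On plastic ADM was 7.12 in 2102Ep, 6.75 in 833KE, 7.39 in TERA1 and 6.57 in NTERA2, all below the lowest ES line, but 10.78 in NCCIT, above the highest. The difference was -0.62 ± 0.67 with an adjusted p of 0.687. Without NCCIT it was -1.38 with an adjusted p of 0.0359. NCCIT was the highest of all 14 arrays in 7 of 8 ADM probesets.

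STC2, a secreted glycoprotein, was 10.07 in NCCIT and between 6.47 and 8.91 on all other arrays. The other plastic values were 8.25 in 2102Ep, 8.33 in 833KE, 6.47 in TERA1 and 6.79 in NTERA2, and ES lines lay between 6.88 and 7.85 (median 7.45). It was 8.91 in 833KE and 8.86 in 2102Ep on feeders and 7.51 in NTERA2 on feeders, with a difference from ES of 1.00 ± 0.34 (SE) and an adjusted p of 0.162 (limma). Without NTERA2 on feeders this was 1.46 with an adjusted p of 0.0296. VEGFA, the main angiogenic ligand among HIF targets, was between 6.79 and 7.50 in ES lines (median 7.16). Plastic cultures measured 7.98 in NCCIT, 7.02 in 2102Ep, 7.34 in 833KE, 5.66 in TERA1 and 7.15 in NTERA2, and on feeders 7.47 in NTERA2, 8.13 in 2102Ep and 7.26 in 833KE. TERA1 was the lowest of the 14 arrays in 10 of 14 VEGFA probesets. VEGFA was not called (adjusted p = 0.877 on plastic and 0.328 on feeders).

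The carbonic anhydrases CA9 and CA12 buffer extracellular pH. CA9, read from 13 probesets, was between 5.24 and 5.74 on all 14 arrays, below every array's exon-level median. CA12 was between 4.64 and 5.89 on 12 arrays, but 6.18 in NTERA2 on plastic and 7.47 in NTERA2 on feeders. NTERA2 on feeders was the highest of the 14 arrays in 16 of 20 CA12 probesets. Group differences of CA12 were -0.35 ± 0.27 (SE) on plastic and 0.41 ± 0.50 on feeders.

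The remaining targets act on matrix, glycogen, chromatin and growth control. All 6 with a cluster had differences above 0 in both comparisons with ES and below 0 between feeders and plastic, and none was called. The median was 0.59 on plastic and 0.60 on feeders. GBE1, the glycogen branching enzyme, had the largest. It was between 6.43 and 7.79 in ES lines (median 6.64). For EC lines on plastic the values were 7.74 in NCCIT, 8.34 in 2102Ep, 8.47 in 833KE, 7.34 in TERA1 and 7.07 in NTERA2, and on feeders 7.54 in NTERA2, 8.52 in 2102Ep and 7.36 in 833KE. H14, at 7.79, was the highest ES line and lay within the EC range. The differences were 0.90 ± 0.32 (SE) with an adjusted p of 0.137 on plastic and 0.91 ± 0.36 with an adjusted p of 0.22 on feeders (limma).

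KDM3A, a histone demethylase, was between 6.65 and 7.85 in ES lines (median 7.02). The plastic cultures gave 7.54 in NCCIT, 8.31 in 2102Ep, 7.79 in 833KE, 7.55 in TERA1 and 8.79 in NTERA2, and on feeders 7.47 in NTERA2, 8.0 in 2102Ep and 7.07 in 833KE. The ranges overlapped. KDM3A had a plastic difference of 0.86 ± 0.27 (SE) with an adjusted p of 0.0993 and was above 0 in 34 of 35 probesets. NDRG1, a stress-induced growth regulator, was between 5.98 and 6.70 in ES lines. It was 6.96 in NTERA2, 7.41 in 2102Ep and 7.17 in 833KE on feeders, all above the ES range, with a difference of 0.83 ± 0.21 (SE) and an adjusted p of 0.0667. As the mean of its probesets that was 0.85 with an adjusted p of 0.0425 (limma). The collagen prolyl hydroxylases P4HA1 and P4HA2 had differences of 0.50 ± 0.34 and 0.51 ± 0.26 on plastic, and 2102Ep on feeders, at 9.10, was the highest array in all 19 P4HA2 probesets. MXI1, a MYC antagonist, was between 6.94 and 7.0 on feeders and between 6.46 and 6.76 in ES lines, with a difference of 0.37 ± 0.13 and an adjusted p of 0.167. ANKRD37 was 5.69 ± 0.30 (SD, n = 6) in ES lines and 5.94 ± 0.29 (n = 5) on plastic.

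The same 3 EC lines were then compared between feeders and plastic with the line as a block. None of the 29 genes and none of the 22011 clusters was called (0.0%) by limma. At an unadjusted p under 0.05 stood 7 of 29 genes and 14.9% of all clusters. HK1, ALDOA, CA12 and STC2 were higher on feeders in all 3 lines, 4 of 29, where 20.6% of all clusters were. EGLN3, ADM, BNIP3L, HK2, KDM3A, LDHA and PFKFB3 were lower in all 3, which was 7 of 29, where 18.1% of all clusters were. HK2 had the smallest p, with a difference of -0.95 ± 0.24 (SE) and an adjusted p of 0.253 (limma). EGLN3 differed by -1.0 in NTERA2, -0.18 in 2102Ep and -0.93 in 833KE. BNIP3 was lower by -1.73 in NTERA2 and -1.55 in 2102Ep and differed by 0.23 in 833KE, the one line whose feeder and plastic arrays both carry later codes.

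At the level of single probesets, 10 of 581 were called on plastic, 1.72%, where 2.81% of all probesets were. These were 6 of EGLN3, all lower, and 1 of BNIP3, 1 of HK1 and 2 of PGK1, all higher. Leaving out 1 array moved this count to between 1 and 16. On feeders 23 of 581 were called, 3.96%, where 0.953% of all were. HK1 had 9 of these, higher, EGLN3 had 9 and ADM 3, lower, and NDRG1 and ALDOA 1 each, higher. Leaving out 1 array moved this count to between 3 and 19. Between feeders and plastic 0 of 581 and 0.0% of all were called by limma, while 12.7% of all had an unadjusted p under 0.05.

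Exon usage was tested as the departure of a probeset from the other probesets of its gene, of at least 1 on the log2 scale. On plastic 0 of the probesets kept were called with limma's diffSplice, where 0.2% of all were. On feeders 5 of 527 were called, where 0.0633% of all were. HK1 had 3 of these, 3250307, 3250288 and 3250303, with departures of -1.80, -1.64 and -1.47, all in the low 5′ run, and EGLN3 had 2, 3560441 and 3560439, with 1.47 and 1.31, both in the 5′ run that did not follow the gene. diffSplice takes 1 spread per gene, and with a spread per probeset none of the 5 was called, with adjusted p between 0.141 and 0.328. The low HK1 run had a median value of 3.67, under the 25th percentile of all exon-level values (4.78). Its called probesets had passed the filter, but whether their departures reflect exon use or dim signal was not tested.

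Within the ES group itself, the level of many of these genes differed between arrays of earlier and later codes. The earlier codes there belong to 2 lines, H14 and Shef5, with 1 array each, so code and line cannot be told apart. H14 was above the ES mean for 29 of the 33 genes, and Shef5 for 17. The 2 ES arrays with earlier codes were above all 4 with later codes for 12 of 29 genes, 41.4%, where 19.5% of all clusters were, and below them for 1, PFKM (3.45%, all clusters 12.5%). ALDOA was 11.03 and 11.28 on the earlier and between 9.96 and 10.26 on the later arrays. The difference was larger towards the inferred 3′ end. Over the last 7 of 21 PKM probesets, ES arrays lay between 10.69 and 11.04 with earlier codes and between 8.70 and 9.49 with later codes. For its first 7 these ranges were 9.90 to 10.47 and 9.59 to 10.07. Each of 26 genes with at least 9 probesets was cut into 3 equal parts. The earlier minus later difference was larger in the 3′ part than in the 5′ part in 23 (88.5%), with a median of 0.389, against 69.8% and 0.215 over 9823 genes.

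HK1 was read in the same way. Over its last 11 of 34 probesets, NTERA2 and 2102Ep on feeders (earlier codes) lay between 10.29 and 10.71, 833KE on feeders (later code) at 10.20, ES lines between 9.30 and 9.52 with earlier codes and between 7.80 and 8.50 with later codes. All plastic arrays carry later codes. As the mean over its probesets, HK1 differed from ES on feeders by 1.05 with an adjusted p of 0.00676 (limma). Without the probesets of the 3′ part, where the low 5′ run has a larger share of the mean, this was 0.71 with an adjusted p of 0.0195. With the code class as a block, HK1, EGLN3 and ADM stayed called on feeders. The part of the codes in the results on feeders was not tested beyond these fits and the values given here. What the codes stand for is not given in the sources used here.

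**Figure D5:**
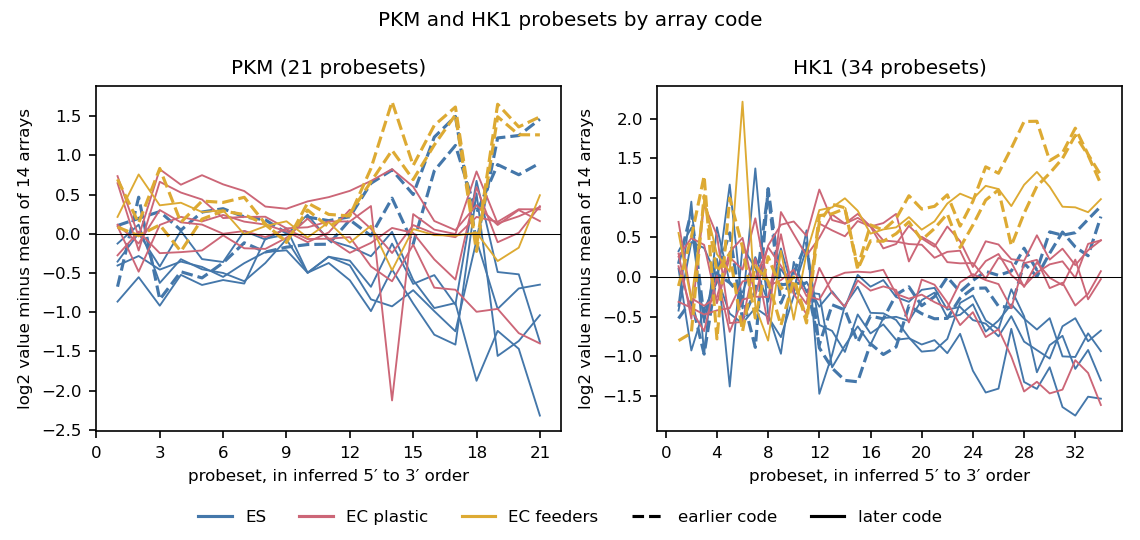
Log2 values of single PKM and HK1 probesets minus the mean of the 14 arrays, in inferred 5′ to 3′ order, with dashed lines for the 4 arrays with earlier codes. Over the last 7 PKM probesets the dashed ES lines (10.69 to 11.04) lie above the solid ES lines (8.70 to 9.49).

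Other genes of the pathway were taken from lists. Over all clusters 4.6% were called on plastic and 2.29% on feeders, and these shares stand beside the counts of each list below. Of the HIF subunits and regulators, 12 of 15 had a cluster. On plastic ARNT2, a partner of the alpha subunits, was lower at 5.60 ± 0.57 (SD, n = 5) against 6.96 ± 0.36 (n = 6), a difference of -1.36 with an adjusted p of 0.0124 (limma). CITED2, which competes with HIF for its coactivators, was lower by -1.04 with an adjusted p of 0.0478. None was called on feeders, where HIF1A had the smallest p, at 9.52 ± 0.13 (SD, n = 3) against 10.19 ± 0.25 (n = 6) in ES lines, with an adjusted p of 0.0779. The 3 HIF1A values on feeders, up to 9.63, were below the lowest ES value of 9.90. Of all clusters, 3.08% were lower on feeders without overlap in this way.

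Among other HIF targets 25 of 30 were measured. On plastic 1 was higher, the histone demethylase KDM4C (1.16, adjusted p = 0.0087), and 1 lower, the VEGF receptor FLT1 (-2.80, adjusted p = 0.0169), and on feeders FLT1 was lower (-2.60, adjusted p = 0.0293, limma). Of 18 other glycolysis and glycogen genes, PGM1, PGM2 and PFKFB2 were higher on plastic, by 1.08, 0.84 and 0.75, and PGM1 on feeders, by 1.34. The phosphoglucomutases PGM1 and PGM2 link glycogen to glycolysis. Of 20 genes of lactate and pyruvate handling, MPC2, a subunit of the mitochondrial pyruvate carrier, was higher on plastic (0.87, adjusted p = 0.0132) and none was called on feeders. TKT, the transketolase of the pentose phosphate pathway, was higher on feeders (1.09, adjusted p = 0.0243), the 1 called of 9. None of 9 glucose transporters and none of 16 genes of the citric acid cycle was called in any comparison.

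Between feeders and plastic in the 3 EC lines none of these lists had a called gene. The smallest p values there belonged to HIF1A (-0.60, adjusted p = 0.275), INSIG2 (-0.82, 0.25), GPD2 (-0.63, 0.27) and PCK2 (2.17, 0.237), by limma with the line as a block. PCK2, the mitochondrial enzyme that turns oxaloacetate into phosphoenolpyruvate, was at 8.56 ± 0.79 (SD, n = 3) on feeders and 6.39 ± 0.38 on plastic.

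Of 18 fibroblast markers, COL1A1, COL5A2 and COL6A1 were lower on plastic than in ES lines, by -1.65, -1.40 and -1.32, and none was called on feeders. Over all clusters 4.6% were called on plastic and 2.29% on feeders. The summed log2 level of the list was between 100.5 and 108.3 on plastic, 110.7 and 126.4 in ES lines and 111.6 and 118.2 on feeders. Between feeders and plastic in the same 3 EC lines, 16 of the 18 markers had differences above 0, and none was called. Their median there was 0.27, where that of all clusters was 0.0222. The feeders were mouse cells and the arrays human, so how far these probes read feeder RNA is not known. The part of this list in the results was not tested.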

How the data were processed

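RNA of 14 cultures was hybridised to human exon arrays (Affymetrix Human Exon 1.0 ST). The deposited values are log2 intensities that the authors made with RMA, and Affymetrix Expression Console and limma are named without versions per the submitters' processing notes. Their settings and the genome build are not given in the sources used here. The number of arrays limits the precision.

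Clusters and probesets were matched to the 33 symbols by current or older name. The members and gene lists were chosen with earlier results of these data known. Two-sided tests came from limma 3.58.1 under R 4.3.3, with lmFit and eBayes run over all features of the groups compared, with Benjamini-Hochberg adjustment over all of them and a threshold of 0.05. The exon usage test (diffSplice) left out probesets under the 25th percentile and genes with fewer than 3 left. Scripts were tested on simulated data. Replicates are different lines with 1 array each.

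The feeders against plastic comparison has the cell line as a block. The labels name the same 3 lines in both conditions, and deviations from the group means correlated at 0.507 (NTERA2), 0.405 (2102Ep) and 0.342 (833KE) over all clusters.

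Values on every EC array, and the lowest, median and highest of the 6 ES arrays, were given for each called gene, the gene with the largest difference of each role, and PFKFB3, PFKFB4, HK1, HK2, PDK1 and VEGFA. From other lists the called genes or the one with the smallest p were named. Genes described for their spread among lines were named after their values were seen. Alternatives changed the normalization, filter, variance model, samples, array codes and gene value. Gene values as the median over probesets, without the 3′ part or without the probeset equal to the cluster, and the spread per probeset in exon usage, were chosen after seeing the data.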

Additional observations from a re-analysis of the deposited data

Results flagged for a closer look

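In 5 of 66 groups of arrays 1 array stood apart from the rest of its group by Dixon's criterion, which chance does in about 1 in 20 groups. LDHA in NCCIT on plastic was at 9.22, with the nearest of its group at 12.63. ADM in NCCIT on plastic was at 10.78, with the nearest at 7.39. CA12 in NTERA2 on plastic was at 6.18, with the nearest at 4.94, and BNIP3L in the same culture was at 9.64, with the nearest at 8.50. PGAM1 in the ES line H14, read as the mean of its probesets, was at 11.94, with the nearest at 11.45.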

How the results depend on the processing

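No called result of these genes changed sign under any setting run. LDHA on plastic, which was not called, went from -0.35 to 0.35 without NCCIT. For called genes and called exon usage probesets together, 67 settings that left out 1 array kept the call and 25 lost it. Among other settings 59 kept it and 20 lost it. Of the called genes, only ADM on feeders lost its call when 1 array was left out. The other losses there were exon usage probesets of HK1 and EGLN3. On plastic the number of called genes was 2 to 4 when 1 array was left out (4 without NCCIT, where ADM and HK1 were added). On feeders it was 2 to 3, but 1 with later codes only and 0 with earlier codes only. Probesets called on plastic numbered 1 to 16 when 1 array was left out. They were 4 without H14, 6 without Shef5, 1 without Shef3, 1 without Shef7, 16 without NCCIT, 2 without 2102Ep, 5 without 833KE and 2 without TERA1. They were 20 without dim features, 4 with later codes only and 6 with only the 3 EC lines also grown on feeders. Probesets called on feeders numbered 3 to 19 when 1 array was left out. They were 6 without Shef 6, 6 without Shef3, 13 without H9, 8 without Shef7, 8 without 2102Ep and 3 without 833KE. They were 15 with the spread of all 14 arrays, 15 with the code class as a block, 2 with later codes only and 0 with earlier codes only. Exon usage calls were 0 to 1 on plastic and 1 to 5 on feeders when 1 array was left out, and on feeders 1 with the 50th percentile filter, 3 after quantile normalisation and 0 with a spread per probeset. The cause of these changes was not tested. Leaving out an array changes both the number of samples and the lines compared. Without the replicate block for the line, 0 of the 29 genes and 0 of the 581 probesets were called between feeders and plastic, as with it.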
